A study of Mus musculus with 31 samples.

Results

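Kit, Il2ra, Cd44 and Cd24a encode the surface proteins by which the earliest thymocytes are staged, and their levels were followed over untreated mouse thymus and ENU-induced thymic tumors. They are 4 of 18193 genes with a probe set of their own, and hold 11 of the 45101 probe sets on the array. All probe sets that the probe annotation names for 1 of these genes alone were taken, namely 2 for Kit, 2 for Il2ra, 4 for Cd44 and 3 for Cd24a. Of these, 10 passed the filter on low values, and the Cd44 probe set 1443265_at, with a mean of 3.49 on the log2 scale, did not. For each gene the probe set of highest mean was taken as the main one.

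Thymocytes that do not yet carry CD4 or CD8 are called double-negative (DN), and they pass through DN1, DN2, DN3 and DN4 stages. KIT, the receptor tyrosine kinase for stem cell factor, marks DN1 and DN2 cells. CD44, an adhesion receptor for hyaluronan, is high on DN1 and DN2 cells, and CD25, the IL-2 receptor alpha chain encoded by Il2ra, is high on DN2 and DN3 cells. CD24, a small glycosylphosphatidylinositol-anchored glycoprotein encoded by Cd24a, is high on immature thymocytes and falls as T cells mature, while KIT also marks mast cells, CD44 activated and memory T cells, and CD25 regulatory T cells.

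All mice were C57BL/6. They carried NDR1, a protein kinase encoded by Stk38, as wild-type (WT), in heterozygous form (HT) or with both copies mutant (KO). Untreated thymus was measured on 4 arrays per genotype, 2 female and 2 male. Tumors arose after ENU, the mutagen N-ethyl-N-nitrosourea, which alkylates DNA, at 100 mg/kg and were taken as they developed or at 9 months, from 5 females for WT, 6 females and 1 male for HT, and 6 females and 1 male for KO. Titles name thymocytes and tumor cells whereas source labels name the organ, and animal age and the disrupted part of Stk38 are not given in the sources used here. Tumor state cannot be told apart from ENU exposure or from the time since it, and the labels do not say that each array came from its own animal, so p-values measure only the spread between these samples.

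Levels below are log2(intensity + 1), differences are on that log2 scale, and a probe set was called where limma's Benjamini-Hochberg adjusted p over 33825 probe sets was under 0.05. Every array had a median intensity of 20.0. Between male and female thymi 25.1% of all probe sets were called, Kit, Cd44 and Cd24a among them, and sex was a covariate in the fits. The T cell gene Cd3e lay between 11.29 and 13.02 in the 19 tumors, against a mean of 12.76 ± 0.163 (SD, n = 12) in thymus. In 4 tumors, KO tumor 06, KO tumor 04, HT tumor 01 and HT tumor 03, the mean of the 6 measured B cell markers was 12.86, 12.58, 12.35 and 10.98, while the other 15 tumors had at most 9.94 and the thymi at most 7.64. The means of the mature T cell, regulatory T cell, NK, DN1, neutrophil and macrophage lists were also highest in these 4 tumors, and some results are given both with and without them. Leaving them out was chosen after seeing the data, so p-values without them are descriptive only. The DN1 list, of Flt3, Lyl1, Lmo2, Spi1, Mef2c, Bcl11a, Hhex and Gata2, had means of 8.04 to 9.90 there and at most 6.93 in the other 15. Which cells its genes came from was not tested. The 3′/5′ ratio is the log2 level of actin and Gapdh control probe sets at the 3′ end minus that at the 5′ end. It was taken as a rough reading of RNA integrity, which was not measured directly. The ratio spanned 0.261 to 0.499 in thymi and 0.185 to 4.87 in tumors. These are bulk samples, in which fewer cells of a type and less RNA per cell cannot be told apart.

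Kit had the clearest rise of the 4 genes in tumors. Its main probe set, 1452514_a_at, read 5.36, 5.36, 5.05 and 5.25 in WT thymus, 5.65, 5.36, 5.45 and 4.67 in HT thymus, and 5.89, 5.51, 4.98 and 5.19 in KO thymus. The 5 WT tumors read 9.32, 10.78, 9.65, 7.40 and 8.03, all above every thymus. HT tumors ran from 4.34 to 8.83 with a median of 7.40, and KO tumors from 4.17 to 9.92 with a median of 7.0. Kit was thus above the range of the 12 thymi in 14 of 19 tumors, namely 5 of 5 WT, 4 of 7 HT and 5 of 7 KO. At least 14 tumors lay above the thymus range for 7.27% of all probe sets tested, and the median probe set had 4.

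Over the mean of the genotypes, Kit was 2.08 higher in tumors than in thymus (SE 0.559, limma adjusted p = 0.00926), a fold of 4.23. Of the 10 member probe sets tested, 2 were called, the main ones of Kit and Cd44. Of all probe sets 20.9% were called, 8.96% higher and 12% lower, so the count of 2 in 10 does not set the members apart. The second Kit probe set, 1415900_a_at, moved by +1.12 (SE 0.412, adjusted p = 0.0535) and correlated with the first over the 19 tumors (r = 0.813). With female arrays alone the main probe set differed by +2.12 with an adjusted p of 0.0608. Without the 4 tumors of high B cell markers the difference was +2.47 (adjusted p = 0.000178), and the second probe set was then called too (+1.34, adjusted p = 0.0118). None of those 4 tumors had Kit above the thymus range, so leaving them out raised the Kit difference by construction.

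**Figure D1:**
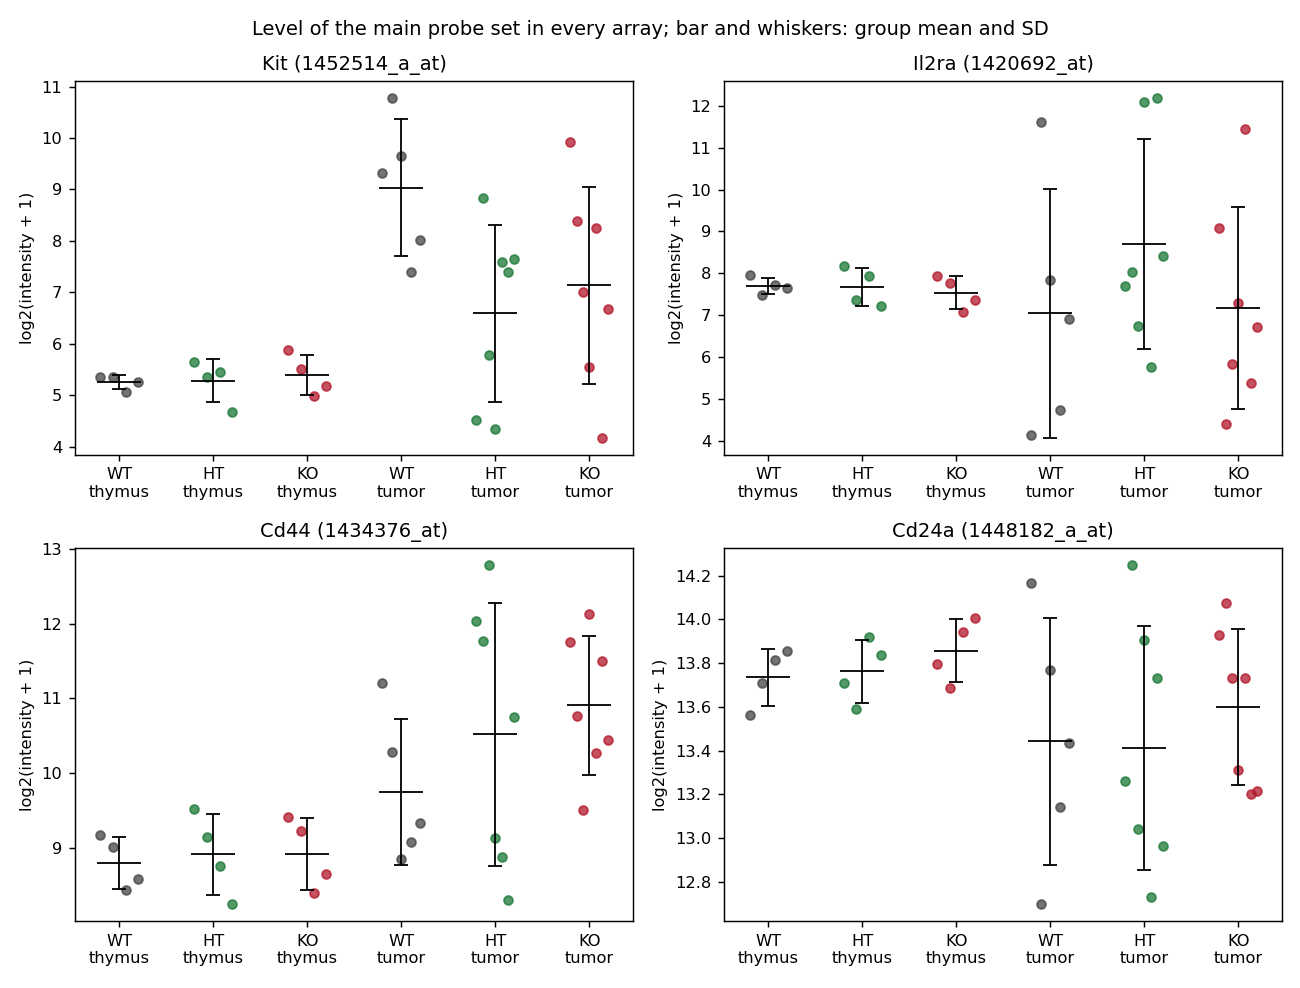
Level of each gene's main probe set, as log2(intensity + 1), in every array of the 6 groups of genotype and tissue, 4 arrays per thymus group and 5, 7 and 7 in WT, HT and KO tumors; points are arrays, bars and whiskers the group mean and SD. The thymus points spread less than the tumor points for all 4 genes, and for Kit the 5 WT tumors, from 7.40 to 10.78, all lie above the highest thymus at 5.89.

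By genotype, the Kit rise was called within WT (+3.54, SE 0.955, adjusted p = 0.0325, a fold of 11.6), where 4.3% of all probe sets were called and 1.74% were called higher. All WT tumors lay above all 12 thymi for 5.77% of probe sets. The WT call was lost with female arrays alone (+3.68, adjusted p = 0.259) and without WT tumor 02 (+3.10, adjusted p = 0.0854). It was also lost without any 1 of the 4 WT thymi (+3.48 to +3.61, adjusted p from 0.0552 to 0.115). These fits gave thymi and tumors a shared spread, while the SD of Kit was 0.318 over thymi and 1.91 over tumors. With array weights that let tumors spread more than thymi, Kit over the mean of genotypes differed by +2.10 (limma adjusted p = 6.14e-05). Within HT, Kit differed by +1.13 (SE 0.873, adjusted p = 0.608), and within KO by +1.57 (SE 0.873, adjusted p = 0.349), with 2.37% and 3.47% of all probe sets called. Without the 4 tumors of high B cell markers, the KO difference was +2.41 and called (adjusted p = 0.036), the WT difference was +3.37 (adjusted p = 0.00505) and the HT difference was +1.64 (adjusted p = 0.190). As those 4 HT and KO tumors had no raised Kit, the larger HT and KO differences follow from leaving them out.

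The smaller Kit differences in HT and KO were not shown to differ from that in WT. The difference of differences was -2.41 for HT minus WT (SE 1.24, unadjusted p = 0.0632) and -1.97 for KO minus WT (SE 1.24, unadjusted p = 0.124), and no probe set of any gene was called in limma for any of the 3 pairs of genotypes, with 198 to 334 of 33825 under an unadjusted p of 0.05. Directly between tumors, Kit was 2.36 lower in HT than in WT (SE 0.991, unadjusted p = 0.029, adjusted p = 1) and 1.82 lower in KO than in WT (SE 0.991, adjusted p = 0.971). The 4 tumors of high B cell markers are all HT or KO, and without them these differences were smaller, 1.56 lower in HT (SE 0.840) and 0.68 lower in KO (SE 0.840). The differences of differences were then -1.74 (SE 0.977) and -0.96 (SE 0.977). In order of mean, Kit stood at 9.04 ± 1.34 (SD, n = 5) in WT tumors, 7.13 ± 1.92 (n = 7) in KO tumors, 6.59 ± 1.72 (n = 7) in HT tumors, and then 5.39 ± 0.395, 5.28 ± 0.424 and 5.26 ± 0.143 (n = 4 each) in KO, HT and WT thymus. The step from HT tumor to KO thymus spanned more than the thymus SDs and less than the tumor SD, and the thymus groups overlapped.

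The 5 tumors without a raised Kit were HT tumors 01, 03 and 04 and KO tumors 04 and 06, at 4.52, 5.78, 4.34, 5.55 and 4.17. All but HT tumor 04 are the tumors of high B cell markers. Of the 15 other tumors, 14 had Kit above the thymus range, with a median of 8.03. In HT tumor 04, a male, the B cell list mean was 4.57, the lowest of all tumors, and its Il2ra level of 12.10 was among the highest.

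Of the mast cell markers, Cpa3, Tpsb2 and Hdc passed the filter, and Mcpt4, Fcer1a, Ms4a2 and Cma1 lay below it. The mean of the 3 ran from 3.90 to 5.65 in tumors and from 4.17 to 5.22 in thymi, with summed intensities of 43.3 to 454 and 56.5 to 274. None of the 3 was called between tumor and thymus.

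The genes whose pattern over the 19 tumors was most like that of Kit, of 14507 genes compared, were Igsf23 (r = 0.844), Cenpf (0.833), Cep55 (0.831), Aspm (0.829) and Ticrr (0.827). Cenpf, Cep55 and Aspm act at the kinetochore, in abscission and at spindle poles, and Ticrr in the start of DNA replication. Over the 12 thymi the same genes correlated with Kit at -0.465, 0.414, 0.707, 0.576 and 0.644. The cycling list (3 measured genes) correlated with Kit over the 19 tumors (r = 0.819, permutation p adjusted over 64 relations = 0.00128; rho = 0.674, adjusted p = 0.0338). Without the 2 tumors farthest from the median of the list, r was 0.785. Without the 4 tumors of high B cell markers, r was 0.667 and rho 0.361, so part of the relation rests on those tumors. The Kit correlations with the DN1 (-0.662), DN2 to DN3 (0.590), mature T cell (-0.630), NK (-0.633) and B cell (-0.585) lists, each with an adjusted permutation p between 0.0238 and 0.0473, fell to between -0.17 and 0.01 among the other 15 tumors.

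Cd44 was the other gene called, with less margin. Its main probe set, 1434376_at, read 9.17, 9.01, 8.43 and 8.58 in WT thymus, 9.51, 9.15, 8.75 and 8.24 in HT thymus, and 9.40, 9.23, 8.39 and 8.65 in KO thymus. WT tumors read 11.20, 10.27, 8.85, 9.07 and 9.33. HT tumors ran from 8.29 to 12.79 with a median of 10.75, and KO tumors from 9.50 to 12.13 with a median of 10.77. Cd44 was above the thymus range in 12 of 19 tumors (2 of 5 WT, 4 of 7 HT, 6 of 7 KO) and below it in none, and at least 12 tumors above was met by 12.6% of all probe sets.

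The tumor minus thymus difference of Cd44 was +1.19 (SE 0.421, limma adjusted p = 0.0439, a fold of 2.29). Its call was lost when any 1 of 19 of the 31 arrays was left out, namely each of the 12 thymi, WT tumors 01 and 02, HT tumor 02 and KO tumors 01, 02, 04 and 06 (differences over all 31 from 1.07 to 1.32, adjusted p up to 0.0886). It was also lost with female arrays alone (+1.23, adjusted p = 0.169), with no filter on low values (+1.19, adjusted p = 0.0559), and without the 4 tumors of high B cell markers (+0.93, adjusted p = 0.0528). Of 11 other settings for this probe set, 7 kept the call. Among them were no covariate (+1.52, limma adjusted p = 0.00425) and array weights by tissue (+1.21, limma adjusted p = 0.00107). The probe set 1423760_at, which follows the main one closely (r = 0.957 over tumors), differed by +0.86 (adjusted p = 0.281), and 1452483_a_at by +0.45 (adjusted p = 0.605). Over the tumors 1452483_a_at was lower at a higher 3′/5′ ratio (r = -0.479, rho = -0.544, n = 19). With that ratio as a covariate, the main probe set, 1423760_at and 1452483_a_at differed by +1.28, +1.14 and +1.16 (limma adjusted p = 0.0644, 0.221 and 0.144).

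Group means of Cd44 were 10.91 ± 0.929 (SD, n = 7) in KO tumors, 10.52 ± 1.76 (n = 7) in HT tumors and 9.75 ± 0.976 (n = 5) in WT tumors, against 8.92 ± 0.478, 8.91 ± 0.545 and 8.80 ± 0.346 (n = 4 each) in KO, HT and WT thymus. Within a genotype the difference from thymus was +1.71 in KO (SE 0.658, adjusted p = 0.164), +1.32 in HT (adjusted p = 0.386) and +0.55 in WT (adjusted p = 0.742). KO tumors were 1.29 above WT tumors (SE 0.747, unadjusted p = 0.103, adjusted p = 0.971), a difference within the spread of the tumors. With array weights that let tumors spread more than thymi, the KO difference from thymus was +1.72 with an adjusted p of 0.00875. Without the 4 tumors of high B cell markers the differences from thymus were +1.46 in KO (adjusted p = 0.134), +0.68 in HT and +0.66 in WT, and KO tumors were 0.85 above WT tumors (SE 0.703).

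Cd44 was high in the tumors with the most markers of other lymphoid and myeloid cells, but also in some tumors without them. HT tumor 02 and KO tumor 01 read 11.76 and 11.75, with B cell list means of 5.64 and 5.97 and neutrophil list means of 3.87 and 3.98. In the 4 tumors of high B cell markers Cd44 was 11.49 to 12.79, and in the other 15 it was 8.29 to 11.76 with a median of 10.26 and 8 above the thymus range. Over the 19 tumors Cd44 correlated with the regulatory T cell list (r = 0.728), the NK and cytotoxic list (0.717) and the mature T cell list (0.716), with permutation p adjusted over 64 relations of 0.00512, 0.00512 and 0.00928, and rho of 0.716, 0.698 and 0.728. Among the other 15 tumors r was 0.433, 0.344 and 0.388. The B cell list (r = 0.636, adjusted permutation p = 0.0313) and the DN1 list (r = 0.580, adjusted permutation p = 0.0473) also correlated with Cd44. Among the other 15 tumors r was 0.248 and -0.0052. The macrophage list (r = 0.552, adjusted permutation p = 0.0544) and the neutrophil list (r = 0.540, adjusted permutation p = 0.0632) fell short of the threshold. Among the other 15 tumors r was 0.0944 and -0.220. The DN2 to DN3 list ran the other way, also short of it (r = -0.551, adjusted permutation p = 0.0544, and -0.0359 among the other 15). Neutrophil list means were 9.01 to 10.96 in the 4 tumors and at most 7.55 in the others, and macrophage list means 9.05 to 10.55 against at most 8.98. The genes most like Cd44 over the tumors were Irf2, an interferon regulatory factor (r = 0.816), Vim, the intermediate filament vimentin (0.813), Lrrc8c, a volume-regulated channel subunit (0.810), Pde4dip (0.804) and Tram2 (0.804). Of these, Pde4dip (0.775) and Irf2 (0.474) also correlated above 0.4 over the 12 thymi. The part of other lymphoid and myeloid cells in the Cd44 level was not tested.

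Il2ra did not move one way in tumors but spread widely. Its main probe set, 1420692_at, read 7.95, 7.47, 7.72 and 7.65 in WT thymus, 8.18, 7.37, 7.94 and 7.22 in HT thymus, and 7.94, 7.77, 7.07 and 7.36 in KO thymus. WT tumors read 4.13, 11.61, 7.85, 4.73 and 6.90. HT tumors ran from 5.75 to 12.19 with a median of 8.04, and KO tumors from 4.40 to 11.46 with a median of 6.71. Relative to the thymi, Il2ra was above in 6 tumors, within in 4 and below in 9, while at least 9 tumors below was met by 27.1% of all probe sets. The groups overlapped throughout.

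The SD of Il2ra over the 19 tumors was 2.58, greater than that of 99.3% of all probe sets tested, against 0.339 over the 12 thymi. For comparison, the SD over tumors was 1.91 for Kit (greater than 96.3%), 1.32 for Cd44 (87.0%) and 0.474 for Cd24a (34.0%), and the median probe set had 0.646. Il2ra stood apart in 4 tumors, HT tumor 06 at 12.19, HT tumor 04 at 12.10, WT tumor 02 at 11.61 and KO tumor 05 at 11.46, followed by KO tumor 01 at 9.09. They came from all 3 genotypes. The second Il2ra probe set, 1420691_at, read 10.17, 8.87, 8.36 and 10.34 in the same tumors and at most 5.97 in the other 15 (r = 0.935 with the first). Over the tumors both Il2ra probe sets ranked higher at a lower 3′/5′ ratio (rho = -0.495 and -0.618, n = 19), and KO tumor 05 and HT tumor 06 had the lowest ratios of all tumors, 0.185 and 0.189. The part of RNA integrity in the Il2ra spread was not tested.

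Tumor minus thymus for Il2ra was -0.02 (SE 0.850, limma adjusted p = 0.991), a value whose sign turned under several settings and when single arrays were left out. Within WT, HT and KO it was -0.68 (SE 1.45), +1.01 (SE 1.33) and -0.39 (SE 1.33), with adjusted p of 0.857, 0.780 and 0.904. These standard errors exceed 1 log2 unit, so shifts of that size could not be resolved. Group means were 8.70 ± 2.51 (SD, n = 7) in HT tumors, 7.70 ± 0.198, 7.68 ± 0.457 and 7.54 ± 0.391 (n = 4 each) in WT, HT and KO thymus, 7.16 ± 2.42 (n = 7) in KO tumors and 7.04 ± 2.97 (n = 5) in WT tumors, and no neighbours in that order differed beyond their spread.

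Il2ra followed the rank of the DN2 to DN3 list, which holds Ptcra, Notch3, Dtx1, Hes1, Nrarp, Rag1, Cd3e and Dntt and not Il2ra itself. Over 19 tumors rho was 0.658 (permutation p adjusted over 64 relations = 0.0338) and r was 0.395 (adjusted p = 0.228). Among the 15 tumors other than the 4 of highest B cell markers, rho was 0.789 and r 0.733. The 4 tumors of high Il2ra had list means from 11.39 to 12.08, whereas 5 others with list means from 11.39 to 11.92 had Il2ra at 6.71 to 9.09. The regulatory T cell list, another known source of CD25, gave r = -0.249 with Il2ra (permutation p adjusted over 64 relations = 0.445). Genes most like Il2ra over the tumors were A930003A15Rik (r = 0.811), the calpain Capn5 (0.793), Id1, an inhibitor of E proteins (0.779), Nrp1, a semaphorin and VEGF co-receptor (0.753), and Gm16794 (0.748). Over the thymi none of them exceeded 0.315.

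**Figure D2:**
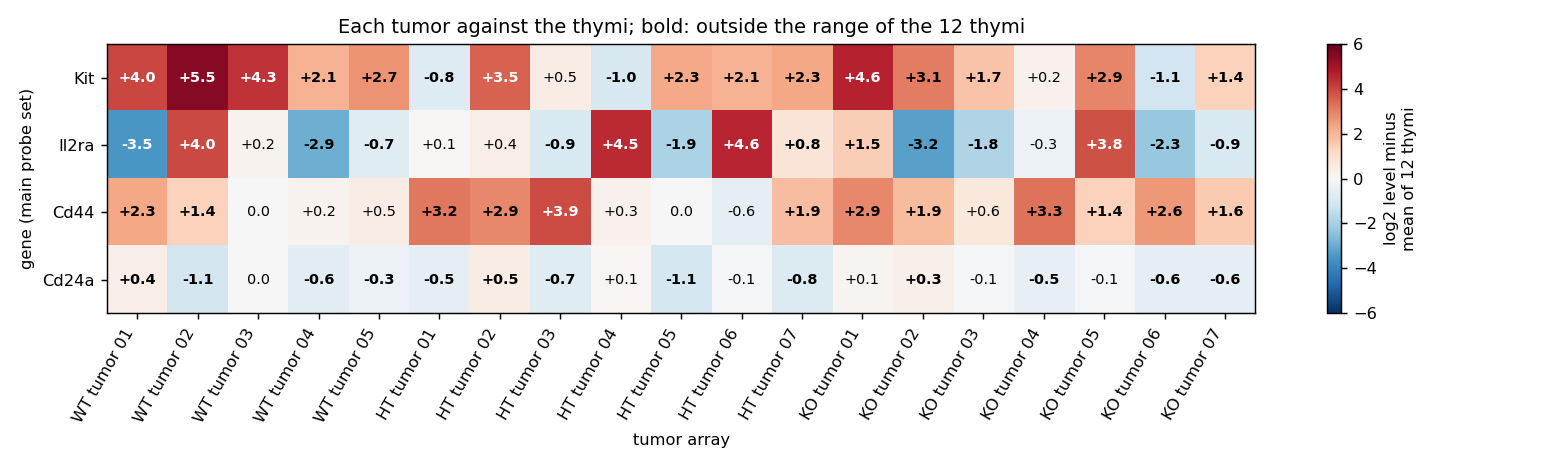
Log2 level of the main probe set of each gene (rows) in each of the 19 tumors (columns) minus the mean of the 12 thymi, in color from blue (lower) to red (higher), with bold numbers outside the range of the thymi. Kit is above the range in 14 tumors, Il2ra is strongly raised in 4 and below the range in 9, and Cd44 is raised in 12, in different combinations from tumor to tumor.

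Cd24a spread least over the tumors, and its probe sets disagreed. The main probe set, 1448182_a_at, ran from 13.56 to 14.01 over the 12 thymi, with group means of 13.74 ± 0.131 in WT, 13.76 ± 0.145 in HT and 13.86 ± 0.145 in KO (SD, n = 4 each). WT tumors read 14.17, 12.70, 13.77, 13.14 and 13.44, HT tumors ran from 12.73 to 14.25 with a median of 13.26, and KO tumors from 13.20 to 14.07 with a median of 13.73. Cd24a was below the thymus range in 10 tumors, within in 6 and above in 3, and at least 10 below was met by 23.5% of all probe sets.

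Tumor minus thymus for the main Cd24a probe set was -0.16 (SE 0.160, limma adjusted p = 0.506). The probe set 1416034_at differed by -0.86 (SE 0.383, adjusted p = 0.112) and 1437502_x_at by +0.40 (SE 0.165, adjusted p = 0.0856), so their signs were opposite. The probe set 1416034_at tracked the 3′/5′ ratio over the tumors (r = -0.744, rho = -0.877, n = 19), the main one less so (r = -0.560, permutation p adjusted over 64 relations = 0.0473), and 1437502_x_at hardly (r = 0.0999). With that ratio as a covariate the 3 differences were -0.24, +0.03 and +0.35. Without the 4 tumors of high B cell markers, 1437502_x_at was called (+0.48, adjusted p = 0.0156). The suffix of 1437502_x_at marks, in the maker's naming, a probe set that may also bind other transcripts, so its level is uncertain. The genes most like Cd24a over the tumors were P4ha1, Tnks, Golt1b, Tmem97 and Abhd13, with r from 0.802 to 0.827.

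**Figure D3:**
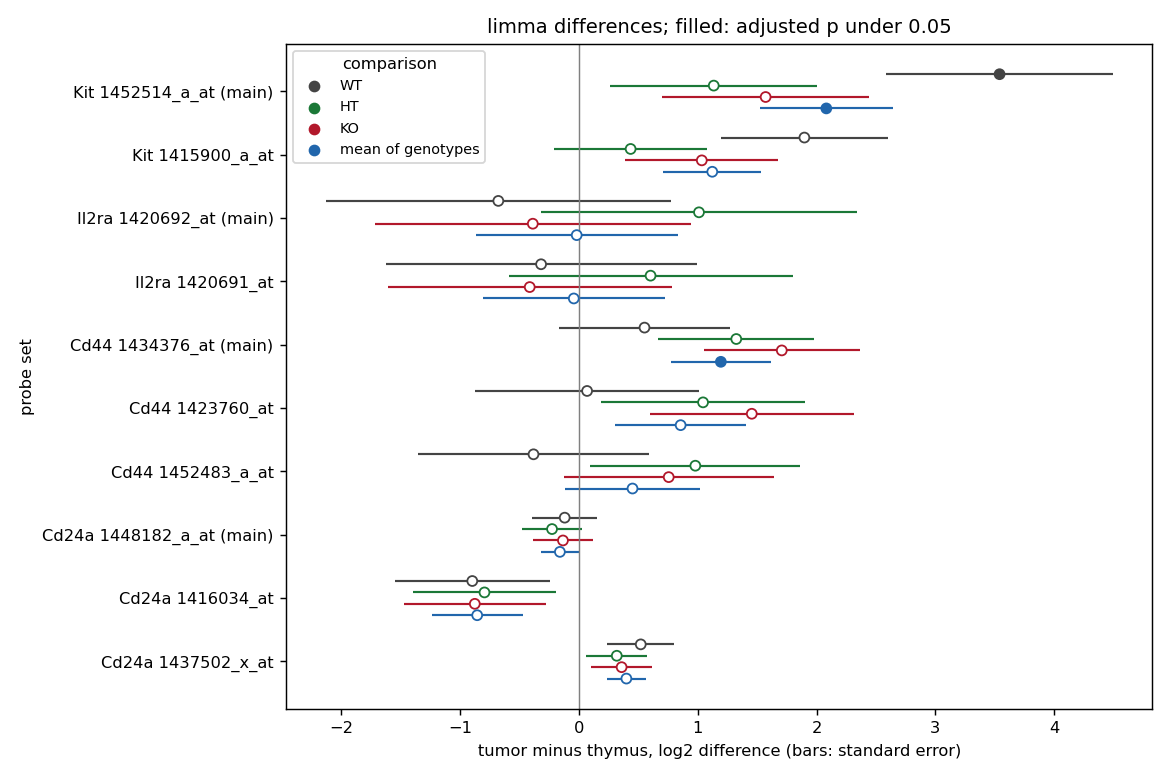
Tumor minus thymus log2 difference (x axis, bars are standard errors) of the 10 member probe sets tested (y axis), within WT, HT and KO and as the mean of the genotypes; filled points have a limma adjusted p under 0.05. The filled points are Kit 1452514_a_at within WT (+3.54) and over the mean of genotypes (+2.08), and Cd44 1434376_at over the mean of genotypes (+1.19).

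In untreated thymus none of the 10 member probe sets was called in limma for KO against WT, HT against WT or KO against HT, with 0, 0 and 1 under an unadjusted p of 0.05. Of all probe sets 0.0621%, 0.00296% and 0.0266% were called, so a count of 0 among 10 does not set these genes apart. The 1 was Cd24a 1437502_x_at, +0.35 for KO against HT (limma unadjusted p = 0.0159, adjusted p = 0.743). Their differences lay between -0.16 and 0.23 for KO against WT, between -0.13 and 0.20 for HT against WT, and between -0.14 and 0.35 for KO against HT. Between tumor genotypes none was called either, with 0, 1 and 0 under an unadjusted p of 0.05 for KO against WT, HT against WT and KO against HT. There, differences ran from -2.36 to 1.62, and of all 33825 probe sets none was called in limma while 1007, 786 and 365 had an unadjusted p under 0.05.

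No pair of the 4 genes was correlated past the threshold from tumor to tumor. Over the 6 pairs of genes r lay between -0.226 (Il2ra and Cd44) and 0.207 (Kit and Cd24a), with permutation p adjusted over the 6 pairs of at least 0.844 (n = 19). Without the 4 tumors of highest Il2ra, r for Kit and Cd24a was 0.606 (n = 15, described only). Scored as above, within or below the thymus range, the 19 tumors showed 14 combinations of the 4 genes. The commonest, in 3 tumors, was a raised Kit with Il2ra and Cd24a below the range and Cd44 within it. Kit and Cd44 were both raised in 8 tumors, and 5 tumors had raised Kit and Il2ra together, whereas 7 had raised Kit with Il2ra below the range.

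**Figure D4:**
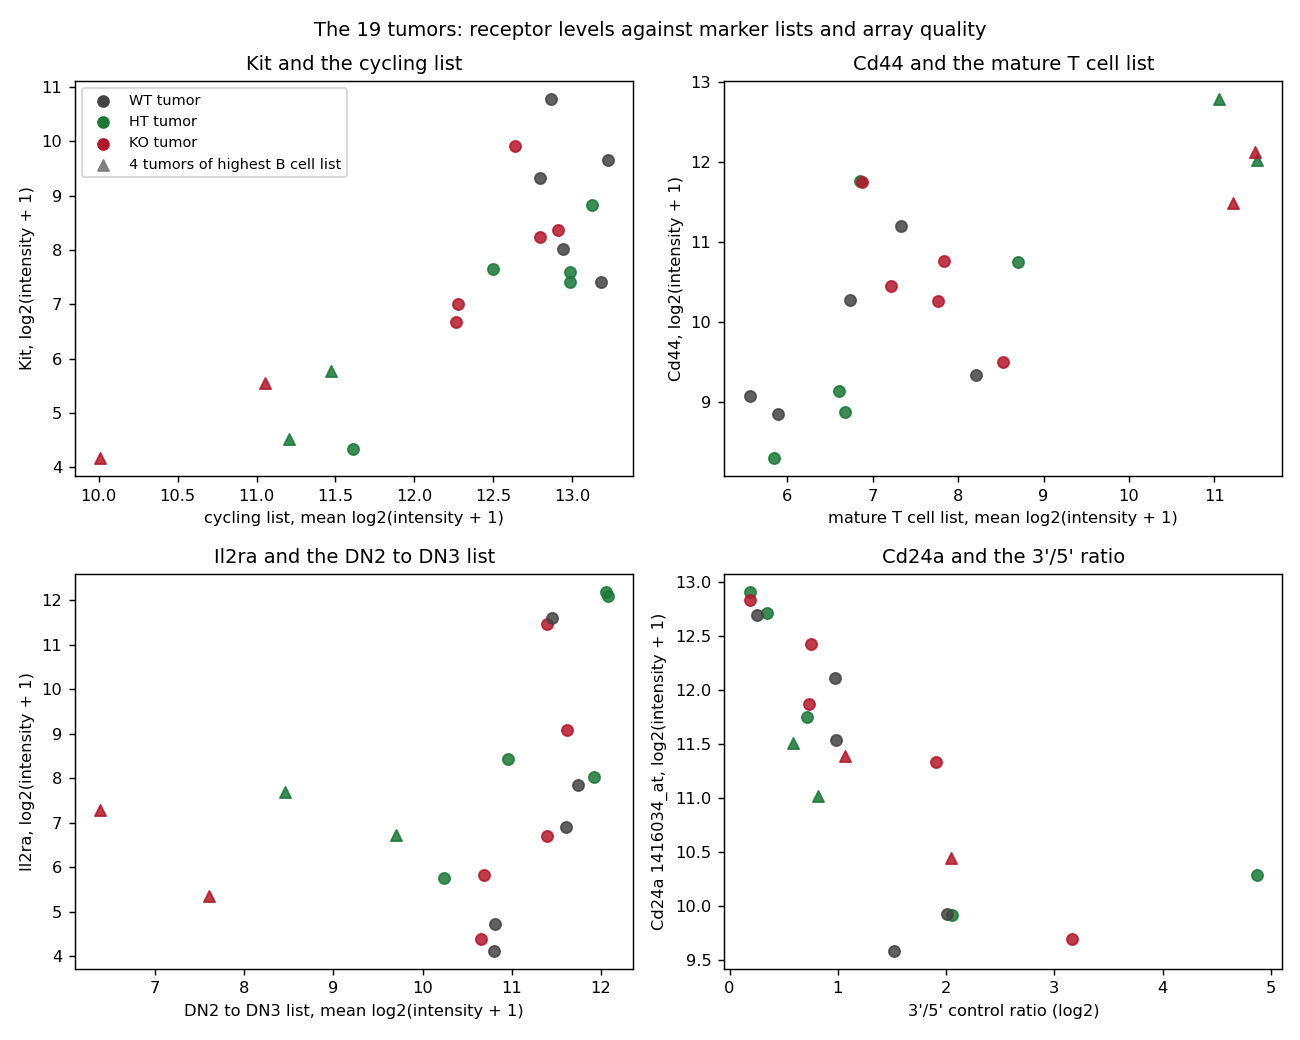
Levels in the 19 tumors, as log2(intensity + 1), of Kit against the mean of the cycling list, Cd44 against the mature T cell list, Il2ra against the DN2 to DN3 list, and Cd24a probe set 1416034_at against the 3′/5′ control ratio (log2); colors are genotypes and triangles the 4 tumors of highest B cell markers. Kit is low and Cd44 high in the triangles, the highest Il2ra levels lie at high DN2 to DN3 means, and 1416034_at is highest, up to 12.91, at the lowest ratios.

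Around these receptors, 1 of 4 ligand genes and 1 of 5 receptor partners and early cytokine receptors were called between tumor and thymus. These counts are not set apart from the 20.9% of all probe sets called, 8.96% higher and 12% lower. Of the 4 ligand genes tested of 8 listed, Kitl, which encodes the KIT ligand, fell by 0.65 (SE 0.195, limma adjusted p = 0.0193) at levels near the filter, and none rose. Of 5 receptor partners and early cytokine receptors, Il15ra rose by 1.62 (adjusted p = 0.00802), while Il2rb (+0.71, adjusted p = 0.533) and Il7r, the IL-7 receptor (-1.52, adjusted p = 0.110), were not called. The median differences of these lists were 0.13 and 0.18, against 0.02 over all probe sets.

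In the relay from these receptors, 4 of 9 genes fell and none rose, beside 12% of all probe sets called lower. They were the transcription factor gene Stat5b (-0.85), the kinase gene Jak1 (-0.80), Pik3r1, a regulatory subunit of phosphoinositide 3-kinase (-0.72), and Cbl, a ubiquitin ligase that acts on activated receptors (-0.58), with limma adjusted p of at most 0.0308. Of 8 STAT5 feedback and target genes, Socs1, an inhibitor of cytokine signaling, fell by 3.24 and the survival gene Bcl2l1 by 2.35, whereas Socs3 rose by 1.96 (limma adjusted p of at most 2.29e-06), and Cish (-0.32) and Pim1 (-0.40) were not called. With 1 of 8 higher and 2 of 8 lower, these counts are not set apart from the 8.96% and 12% of all probe sets.

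Of 16 regulators of the DN stages tested, 4 rose and 1 fell, with a median difference of 0.63, where 8.96% of all probe sets rose, 12% fell and the median was 0.02. By genotype the list median was 0.22 within WT, 0.69 within HT and 1.34 within KO. Its genes Lyl1, Lmo2, Spi1, Mef2c, Bcl11a, Hhex and Gata2 are also on the DN1 list. The mean of that list was highest in the 4 tumors of high B cell markers, all HT or KO. Lyl1, a transcription factor of early progenitors, rose by 3.33, the receptor gene Notch1 by 2.03, Runx3 by 1.70 and Id2 by 1.30, and Id3 fell by 3.08, all with limma adjusted p of at most 0.00128. Among the 8 DN2 to DN3 markers the Notch pathway genes Dtx1, Hes1 and Nrarp rose by 4.87, 3.36 and 2.33, while Rag1 fell by 2.30 and Cd3e by 0.45, with limma adjusted p of at most 0.0337. Of 8 markers of the later double-positive thymocyte, 6 fell and none rose, with a median of -2.05, among them Cd8b1 (-3.36) and Cd4 (-3.59). Markers of fibroblasts moved as well, with 4 of 6 higher and a median of 1.60, and 3 of 5 of thymic epithelium were lower; the part of changed cell makeup in the receptor levels was not tested.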

How the data were processed

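RNA of 31 mouse samples was measured on Affymetrix mouse expression arrays. The deposited values are linear intensities, 1 per probe set and array, made by the authors with GCRMA (background correction, normalization and summary), per the submitters' processing notes; its version was not given in the sources used. The labelling protocol in the labels names a whole-transcript assay, while the array design reads 3′ ends. Arrays had the same quartiles, and no further normalization was applied. Of 45101 probe sets, 45100 had values, and the annotation named 1 gene for 34957, several for 932 and none for 9211.

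Values were turned to log2(value + 1), and the 33825 probe sets with a mean above the 25th percentile (3.56) were fitted with limma 3.58.1 in R 4.3.3 (lmFit, eBayes, Benjamini-Hochberg adjustment), with sex as a covariate. Tumor against thymus, and its differences between genotypes, came from all 31 arrays, thymus genotypes from 12 and tumor genotypes from 19. Each fit gave its groups a shared spread, save with array weights. The sex term rests mostly on thymi, so a fitted difference is not exactly that of group means. The fits were tested on simulated data. Correlations over tumors carry p-values from 100000 permutations (scipy 1.17.1). The number of arrays limits the precision.

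All member probe sets were named. The 5 genes most like a member were those of highest Pearson r over tumors, and list genes were up to 4 of largest difference among those called; uncalled list genes, and the list genes given beyond 4, were chosen after their values were seen. Members and lists were chosen with earlier results of these data known. Alternatives covered the pseudocount, filter, normalization, gene level, covariates, array weights, females only, replicate block and each array left out; leaving out the 4 tumors of highest B cell markers was chosen after seeing the data.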

Additional observations from a re-analysis of the deposited data

Results flagged for a closer look

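In 60 sets of arrays (10 member probe sets in 6 groups), 2 arrays lay far from the rest of their group by Dixon's test at 95%. Chance gives about 1 in 20, a rate that 2 in 60 does not exceed, so both are described only. Il2ra 1420691_at read 10.34 in KO tumor 05, and the next highest KO tumor read 5.49. The main Il2ra probe set was also highest among KO tumors in this array, at 11.46. Cd24a 1437502_x_at read 11.38 in WT tumor 02, and the next lowest WT tumor read 12.15. The same tumor had the lowest main Cd24a level of all tumors, 12.70, and the highest Kit level, 10.78.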

How the results depend on the processing

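Kit (mean of genotypes and within WT) and Cd44 (mean of genotypes) kept a positive sign under all settings and in all probe sets tested, and Kit over the mean of genotypes kept its call without any 1 of the 31 arrays (1.80 to 2.40). Calls changed as follows. The Kit mean call was lost with females only (2.12) and in 1415900_a_at (1.12), and the WT call likewise (3.68 and 1.90). The Cd44 mean call was lost with no filter (1.19), females only (1.23), the 3′/5′ ratio as a covariate (1.28), without the 4 tumors of high B cell markers (0.93), in 1423760_at (0.86) and in 1452483_a_at (0.45). Within KO, Cd44 was called with array weights (1.72) and Kit without those 4 tumors (2.41). The cause was not tested, save that fewer arrays enter the females-only fits. All other sign changes were of values not called under either setting.

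Against thymus, the Il2ra mean turned positive with a pseudocount of 16 (0.16), no covariate (0.00020), the ratio covariate (0.51, and 0.20 within KO) and without the 4 tumors (0.22). Cd24a turned positive with the ratio covariate (mean 0.026, WT 0.021, KO 0.073) and in 1437502_x_at (mean 0.40, WT 0.52, HT 0.32, KO 0.36). Cd44 in 1452483_a_at was -0.38 within WT. For KO minus WT of tumor against thymus, Cd24a turned positive with no covariate (0.035), the ratio covariate (0.052), array weights (0.00022), without the 4 tumors (0.11) and in 1416034_at (0.021), and Il2ra in 1420691_at was -0.096. For KO minus HT, Kit was -0.23 with females only, Cd44 -0.22 in 1452483_a_at and Cd24a -0.081 in 1416034_at, which gave 0.10 for HT minus WT. Between tumors, KO against WT Il2ra was -0.047 with a pseudocount of 16 and -0.0057 in 1420691_at. KO against HT, Kit was -0.035 with females only, Cd44 -0.20 in 1452483_a_at and Cd24a -0.016 in 1416034_at, which gave 0.16 for HT against WT. Between thymi, Il2ra was 0.14, 0.064 and 0.080 with females only and 0.15, 0.011 and 0.14 in 1420691_at for KO against WT, HT against WT and KO against HT. In the same order Cd44 in 1423760_at was -0.058, -0.0074 and -0.051, and for KO against HT it was -0.013 with females only and -0.039 with the ratio covariate, with Kit in 1415900_a_at at -0.0079. Cd24a in 1437502_x_at was -0.13 for HT against WT.

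With 1 array left out, Cd44 over the mean of genotypes ranged from 1.07 to 1.32 and Kit within WT from 3.10 to 3.95. Against thymus, Il2ra ranged from -0.61 to 0.45 (mean), -1.82 to 0.050 (WT), -0.0083 to 1.47 (HT) and -1.05 to 0.42 (KO), and Cd24a within WT from -0.30 to 0.066. The difference between genotypes of tumor against thymus ranged for HT minus WT from -0.29 to 0.074 (Cd24a), for KO minus WT from -0.45 to 1.43 (Il2ra) and -0.20 to 0.17 (Cd24a), and for KO minus HT from -0.0084 to 0.74 (Cd44), -0.014 to 0.24 (Cd24a) and -0.019 to 0.94 (Kit). In thymus the ranges were -0.17 to 0.15 (Il2ra) and -0.12 to 0.18 (Kit) for HT against WT, and -0.31 to 0.011 (Il2ra), -0.11 to 0.092 (Cd44) and -0.041 to 0.25 (Kit) for KO against HT. In tumors they were -0.72 to 1.21 (Il2ra) and -0.11 to 0.26 (Cd24a) for KO against WT, -0.30 to 0.070 (Cd24a) for HT against WT, and -0.0090 to 0.75 (Cd44) and -0.035 to 1.06 (Kit) for KO against HT.

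The number of probe sets called between tumor and thymus was 7077 over the mean of genotypes, and 3374 of 1 probe set per gene, 10860 with no covariate, 3018 with females only and 13604 with array weights. Within WT it was 1455, and 937, 2527, 178 and 5023 in the same order, 2708 without the 4 tumors, and 507 to 1968 with 1 array left out. Within HT it was 801, with 482 at gene level, 222 with females only, 3260 with array weights, 2169 without the 4 tumors, and 366 to 960 with 1 array left out. Within KO it was 1174, with 674, 153, 5878 and 2645 in that order, and 472 to 1725. The lowest counts within each genotype came without any 1 of its own thymi, and within WT also without WT tumor 04. In thymus, KO against WT went from 21 to 13 with no covariate, 4 with females only and 36 with trend and robust, KO against HT from 9 to 5, 2 and 14 (1 to 8 with 1 array left out), and HT against WT from 1 to 0, 0 and 2, and 3 with a pseudocount of 16, 3 at gene level and 1 to 2 with 1 array left out. Arrays of the same number shared only the number: deviations of same-numbered thymi correlated between -0.231 and 0.293 (7 of 12 above 0.1) and of same-numbered tumors between -0.545 and 0.539 (4 of 17 above 0.1). The replicate block gave 4 calls for thymus HT against WT and changed no call of a member; tumor and thymus arrays share no number.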

Other observations

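Sex went with the level of these genes in untreated thymus, a comparison added after its values were seen. Cd44 was lower in males, from 8.24 to 8.75 in 6 male arrays and from 9.01 to 9.51 in 6 female arrays, without overlap (male minus female -0.74, limma adjusted p = 0.00109). Kit was also lower in males (-0.42, limma adjusted p = 0.0447), and the main Cd24a probe set was higher, from 13.82 to 14.01 against 13.56 to 13.79 (+0.22, limma adjusted p = 0.0199). Il2ra differed by -0.28 (limma adjusted p = 0.268). Of all probe sets, 25.1% were called between the sexes in thymus and 12.1% did not overlap, so the members are not apart from the background. The second Kit probe set differed by -0.05 (limma adjusted p = 0.685), whereas Cd44 1423760_at followed the main one (-0.77, limma adjusted p = 0.00283). In each thymus genotype the highest mean of the DN1, DN2 to DN3, regulatory T cell, B cell and cycling lists was in a female array. The same held for the erythroid, macrophage, fibroblast and thymic epithelium lists. For the neutrophil and mast cell lists it was in a male array, and for the remaining lists the sex varied by genotype. The part of cell makeup in these sex differences was not tested. Of the 19 tumors, 2 were male.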
